A study of Zea mays with 16 samples.

Results

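AM1, the maize gene AMEIOTIC1, was measured by 3 probes in whole anthers of 1.5 mm from ms23 and ms32 male-sterile plants and their fertile siblings. The probes were taken by name: they were the probes whose target the array files give as AM1, 3 of 42034 probes that were not controls, and 1 of 39174 target names. No difference in AM1 between mutants and fertile siblings, or between the 2 mutants, passed the test. The intervals on such a difference count each array as independent, and the spread between arrays may be technical. They also depended on the processing. The 3 probes did not give the same order of the groups.

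AM1 encodes a plant-specific protein that commits cells of the male and female germ line to meiosis. In most maize am1 mutants, cells that should become meiocytes divide by mitosis instead, and a weaker allele lets them enter meiosis but stops them early in prophase. The related Arabidopsis gene, SWI1 or DYAD, protects the cohesion between sister chromatids in meiotic prophase. MS23 and MS32 are basic helix-loop-helix transcription factors of the anther wall, needed for the tapetum, the cell layer that surrounds and feeds the meiocytes. In both mutants the cells in the place of the tapetum divide again instead of maturing, and the meiocytes later die.

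The 16 samples fell into 4 groups by genotype, with no treatment. Each mutant, ms23 and ms32, was sampled 6 times, and the fertile siblings of each family 2 times. Plants were field-grown, and the labels do not name the ms23 or ms32 allele or the number of plants per sample. Each of 8 arrays on 2 slides held 2 samples, 1 in the dye Cy3 and 1 in Cy5. The titles give each mutant 3 replicate numbers and each fertile group 1, with every number present in both dyes, while the submitters' design text counts 2 biological replicates for a mutant set against siblings, so the spread between arrays may be technical. All 4 arrays of slide 1 compared ms23 with ms32 mutants, and slide 2 held 2 arrays of each mutant against its own siblings. A ratio to siblings and the direct ratio of the mutants therefore came from different slides.

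The median spot intensity of a sample lay between 94 and 232.25, and 81.19% to 94.79% of probes were well above background. None of 20 tapetum and anther wall genes and none of 32 genes of the chromosome axis, synapsis and recombination had a probe under its gene name. The levels of MS23 and MS32 themselves, and the check of the tissue by tapetum markers, were thus not analysed here. In whole anthers, fewer meiocytes and less AM1 RNA per meiocyte cannot be told apart.

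The probes are A_92_P001166, A_92_P016751 and A_92_P038130. Their name matches a single gene of the RefSeq maize table (assembly Zm-B73-REFERENCE-NAM-5.0), LOC100271891, which has am1 among its synonyms. The sources used here do not say which part of the AM1 transcript each probe matches. All 3 were well above background in 16 of 16 samples, with 0 outlier marks and 0 saturation marks. Spot over local background was 7.91 to 27.4, with a median of 14.2, for A_92_P001166. It was 1.76 to 9.21, with a median of 4.76, for A_92_P016751, and 1.86 to 6.67, with a median of 3.68, for A_92_P038130. The last 2 probes were thus read closer to background, where the constant of 50 added to each intensity draws ratios toward 0.

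Levels are given as normalized log2 intensity per sample, compared only within a probe. A_92_P001166 read 8.57 and 8.95 in the ms23 fertile siblings and 8.24 and 8.85 in the ms32 fertile siblings. In the 6 ms23 mutant samples the lowest level was 8.37, the median 8.72 and the highest 9.13. In the 6 ms32 mutant samples these were 8.02, 8.94 and 9.17. The ms32 mutants thus held both the lowest and the highest level of the probe, and all 4 groups overlapped.

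The group means of A_92_P001166 ran from ms23 fertile siblings, 8.76 ± 0.269 (SD, n = 2), over ms23 mutants, 8.74 ± 0.288 (SD, n = 6), and ms32 mutants, 8.73 ± 0.490 (SD, n = 6), to ms32 fertile siblings, 8.54 ± 0.429 (SD, n = 2). Highest and lowest mean were 0.21 apart, less than the SD within a group, 0.395 when pooled over samples. Here n counts labelled samples; by the titles, the 2 samples of a fertile group are both dyes of 1 replicate number, and the 6 of a mutant are 3 numbers in both dyes. With the dyes of a number averaged, the SD over the 3 numbers was 0.0733 in the ms23 mutants and 0.279 in the ms32 mutants, and the fertile groups had no SD. No neighbours in this order differed beyond their spread. On the scanner software's processed signals the same probe put the ms32 mutants first and the ms23 fertile siblings last.

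A_92_P016751 read 7.63 and 7.70 in the ms32 fertile siblings, and 6.54 and 6.93 in the ms23 fertile siblings. Its lowest, median and highest levels were 6.83, 7.46 and 7.68 in the ms32 mutants. They were 6.69, 6.82 and 7.26 in the ms23 mutants. The samples of the ms32 family were mostly the higher ones, and the mutant groups overlapped.

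The means of A_92_P016751 were 7.66 ± 0.0503 (SD, n = 2) in ms32 fertile siblings, 7.37 ± 0.311 (SD, n = 6) in ms32 mutants, 6.90 ± 0.205 (SD, n = 6) in ms23 mutants and 6.73 ± 0.276 (SD, n = 2) in ms23 fertile siblings. Over the 3 replicate numbers the SD was 0.194 in the ms32 mutants and 0.207 in the ms23 mutants. The difference between the outer means was 0.93, more than the SD within a group, 0.254 when pooled over samples. On the processed signals the difference was 0.69 and the pooled SD 0.476. Each family's mutants stood next to their own siblings in this order, and each such pair overlapped.

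A_92_P038130 read 6.94 and 7.26 in the ms23 fertile siblings, and 6.73 and 6.88 in the ms32 fertile siblings. Its lowest, median and highest levels were 6.45, 7.20 and 7.39 in the ms23 mutants. They were 6.22, 6.57 and 7.13 in the ms32 mutants. Here the means of the ms23 family were the higher ones, the reverse of A_92_P016751, while single samples of the families overlapped.

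The means of A_92_P038130 were 7.10 ± 0.225 (SD, n = 2) in ms23 fertile siblings, 7.01 ± 0.410 (SD, n = 6) in ms23 mutants, 6.80 ± 0.111 (SD, n = 2) in ms32 fertile siblings and 6.60 ± 0.309 (SD, n = 6) in ms32 mutants, a difference of 0.50 from first to last, and of 0.78 on the processed signals. The SD within a group, pooled over samples, was 0.339, less than the first difference, and 0.767 on the processed signals. Over the 3 replicate numbers the SD was 0.174 in the ms23 mutants and 0.0840 in the ms32 mutants. Both of these probes kept their order of groups on the processed signals and in the authors' deposited intensities.

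**Figure D1:**
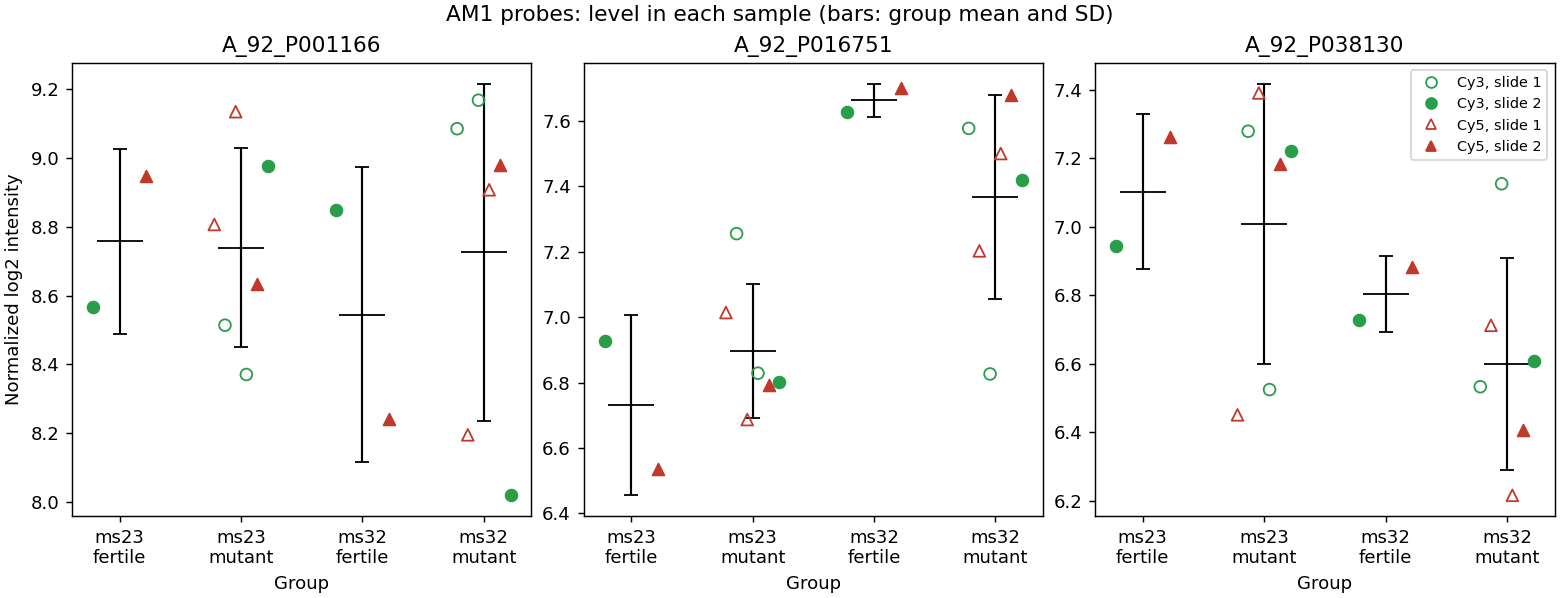
Normalized log2 intensity (vertical axis, separate for each probe) of the 3 AM1 probes in the 4 groups; each point is 1 sample, marked by dye and slide, and the bars give the group mean and SD (n = 2 fertile, n = 6 mutant). A_92_P016751 was highest in the ms32 fertile siblings (mean 7.66) and A_92_P038130 lowest in the ms32 mutants (mean 6.60), while the groups of A_92_P001166 overlapped throughout.

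Of 18 pairs of groups over the 3 probes, 3 did not overlap. In A_92_P016751 the ms32 fertile siblings lay above both the ms23 fertile siblings and the ms23 mutants, and in A_92_P038130 the ms23 fertile siblings lay above the ms32 fertile siblings. The same count over all probes tested was 47% not overlapping between the fertile groups of 2 samples each, and 21.5% between ms23 mutants and ms32 fertile siblings, so separation of these levels was common on the arrays. Over all probes, 2.07% were called between the fertile groups and 6% between ms23 mutants and ms32 fertile siblings. A call here is an adjusted p under 0.05 (limma, Benjamini-Hochberg over all probes), and neither comparison was made within an array. Between ms32 mutants and ms23 fertile siblings, all 3 AM1 probes overlapped, where 24% of all probes did not overlap and 6.71% were called. All 3 also overlapped between ms23 mutants and siblings, ms32 mutants and siblings, and the 2 mutants. There, 9.53%, 6.26% and 7.72% of all probes did not overlap. The fitted ratio of ms23 mutants to ms32 fertile siblings for A_92_P016751 was -0.45 (SE 0.265, limma adjusted p = 0.467), so that pair was not called.

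The first direct comparison asked whether loss of MS23 changed AM1 in anthers of this length. Log2 ratios of ms23 mutant over ms23 fertile sibling on the 2 arrays were 0.07 and 0.03 for A_92_P001166. They were -0.13 and 0.27 for A_92_P016751, and 0.24 and -0.04 for A_92_P038130. Only A_92_P001166 had the same sign on both arrays.

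The limma estimates were 0.05 (SE 0.209, 95% interval -0.46 to 0.56) for A_92_P001166, 0.07 (SE 0.216, -0.46 to 0.60) for A_92_P016751 and 0.10 (SE 0.158, -0.29 to 0.49) for A_92_P038130. Their limma adjusted p-values were 0.995, 0.99 and 0.957. None of the 3 probes was called, where 1.31% of all 39974 probes tested were. That share was 0.179% without array 3 of slide 2, 0.12% without array 4, 0.605% to 0.888% without 1 array of slide 1, and 0.0851% with dye-swapped arrays averaged. As folds, the intervals were 0.725 to 1.47, 0.726 to 1.51 and 0.819 to 1.40, and they depended on the processing. On the processed signals they were 0.693 to 2.03, 0.570 to 2.33 and 0.638 to 2.03. Among all probes, 75.6%, 67.5% and 55.8% had a larger absolute ratio than these 3.

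The second comparison asked the same of loss of MS32. Log2 ratios of ms32 mutant over ms32 fertile sibling were 0.13 and -0.22 for A_92_P001166 and 0.05 and -0.28 for A_92_P016751. For A_92_P038130 they were -0.32 and -0.27. The last was the only probe below 0 on both arrays.

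The limma estimates were -0.05 (SE 0.209, 95% interval -0.56 to 0.47) for A_92_P001166, -0.11 (SE 0.216, -0.64 to 0.42) for A_92_P016751 and -0.30 (SE 0.158, -0.68 to 0.09) for A_92_P038130. The limma adjusted p-values were 1, 1 and 0.788. Again 0 of 3 probes were called, against 0.49% of all 39976 probes tested. That share was 0.168% without array 1 of slide 2, 0.191% without array 2, 0.26% to 0.35% without any 1 of the other arrays, and 0 of the probes were called with dye-swapped arrays averaged. As folds, the intervals were 0.680 to 1.38, 0.640 to 1.33 and 0.622 to 1.06. Of all probes, 20.5% had a larger absolute ratio than A_92_P038130. On the scanner software's processed signals the ratio of that probe was -0.77 (95% interval -1.61 to 0.06, limma adjusted p = 0.773), larger and still not called.

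The third comparison set the 2 mutants against each other on the 4 arrays of slide 1. Log2 ratios of ms23 over ms32 mutant were -0.28, 0.32, -0.03 and -0.54 for A_92_P001166. They were -0.56, 0.05, -0.14 and -0.67 for A_92_P016751, and -0.08, 0.57, 0.27 and 0.31 for A_92_P038130. The first pair of probes was below 0 on 3 of 4 arrays, and A_92_P038130 was above 0 on 3 of 4.

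The limma estimates were -0.13 (SE 0.148, 95% interval -0.49 to 0.23) for A_92_P001166, -0.33 (SE 0.153, -0.71 to 0.04) for A_92_P016751 and 0.26 (SE 0.112, -0.01 to 0.54) for A_92_P038130. The unadjusted p-values of this limma fit were 0.405, 0.0741 and 0.0561, and the adjusted ones 0.6, 0.192 and 0.159. None of the 3 was called, where 20.6% of all 39981 probes were, a share of 11.2% to 14.7% without 1 array of slide 1 and of 11% with dye-swapped arrays averaged. At such a share, the lack of a call among 3 probes of the same gene does not set AM1 apart. As folds, ms23 over ms32 mutant was 0.912 (0.71 to 1.17), 0.795 (0.613 to 1.03) and 1.2 (0.993 to 1.45). A model of the separate dye channels in place of ratios called A_92_P016751 at -0.38 (limma adjusted p = 0.0211) and A_92_P038130 at 0.32 (limma adjusted p = 0.0483), in opposite directions. That model called 31.3% of all probes.

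**Figure D2:**
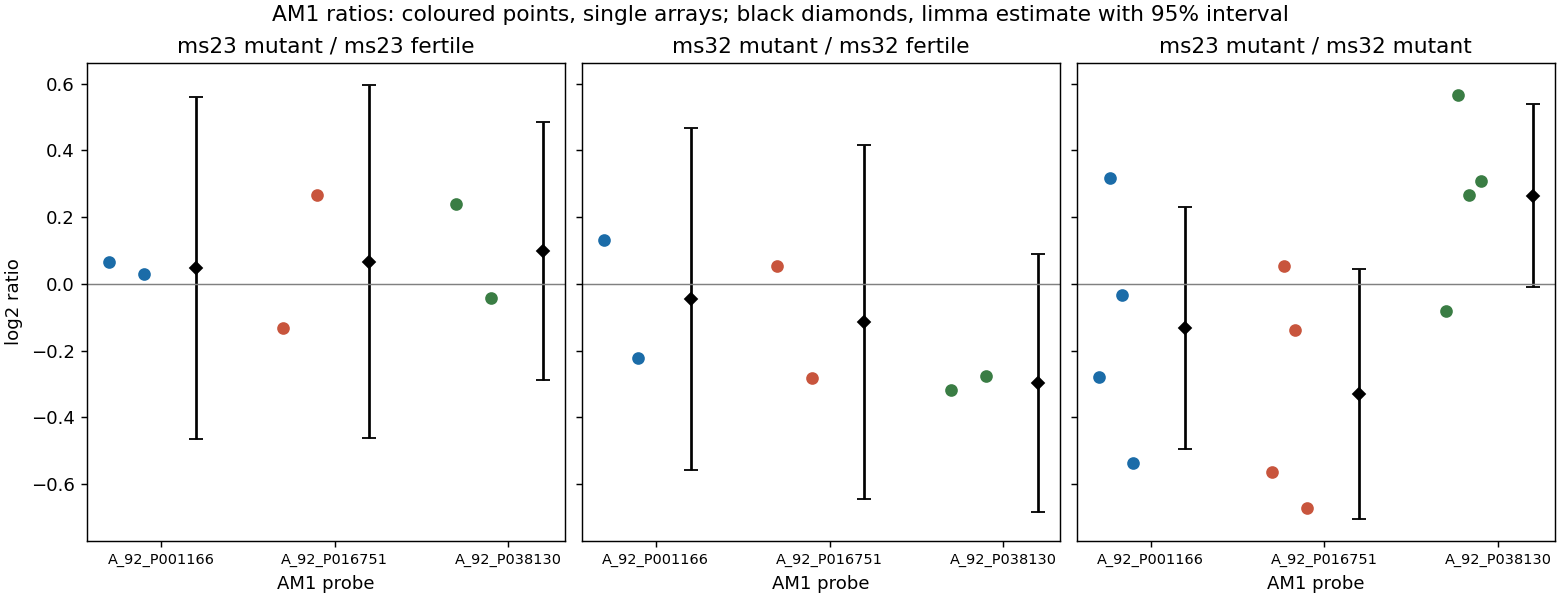
Log2 ratio (vertical axis) of each AM1 probe in the 3 comparisons made within arrays; coloured points are single arrays (2, 2 and 4 per probe) and black diamonds are limma estimates with their 95% intervals. All 9 intervals include 0, and in the ratio of the mutants A_92_P016751 (-0.33) and A_92_P038130 (0.26) lie on opposite sides of it.

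No array held fertile siblings of both families, so their ratio was the sum of measured ratios in the same fit. ms23 over ms32 fertile sibling was -0.23 (SE 0.330) for A_92_P001166, -0.51 (SE 0.342, 95% interval -1.35 to 0.33) for A_92_P016751 and -0.13 (SE 0.250) for A_92_P038130. The limma adjusted p-values were 0.899, 0.698 and 0.927. For A_92_P001166 and A_92_P038130 the difference of the mean levels had the opposite sign, 0.21 and 0.30 higher in the ms23 fertile siblings. The direction between the fertile groups therefore depended, for these 2 probes, on whether ratios within arrays or levels across arrays were used.

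The effect of ms23 minus the effect of ms32, each against its own siblings, was 0.09 (SE 0.295) for A_92_P001166, 0.18 (SE 0.306) for A_92_P016751 and 0.40 (SE 0.224, 95% interval -0.15 to 0.94) for A_92_P038130. None was called (limma adjusted p = 1, 1 and 0.981), where 0.03% of all probes were. A difference between the effects of the 2 mutations on AM1 was not detected with these arrays, and the intervals leave room for one.

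**Figure D3:**
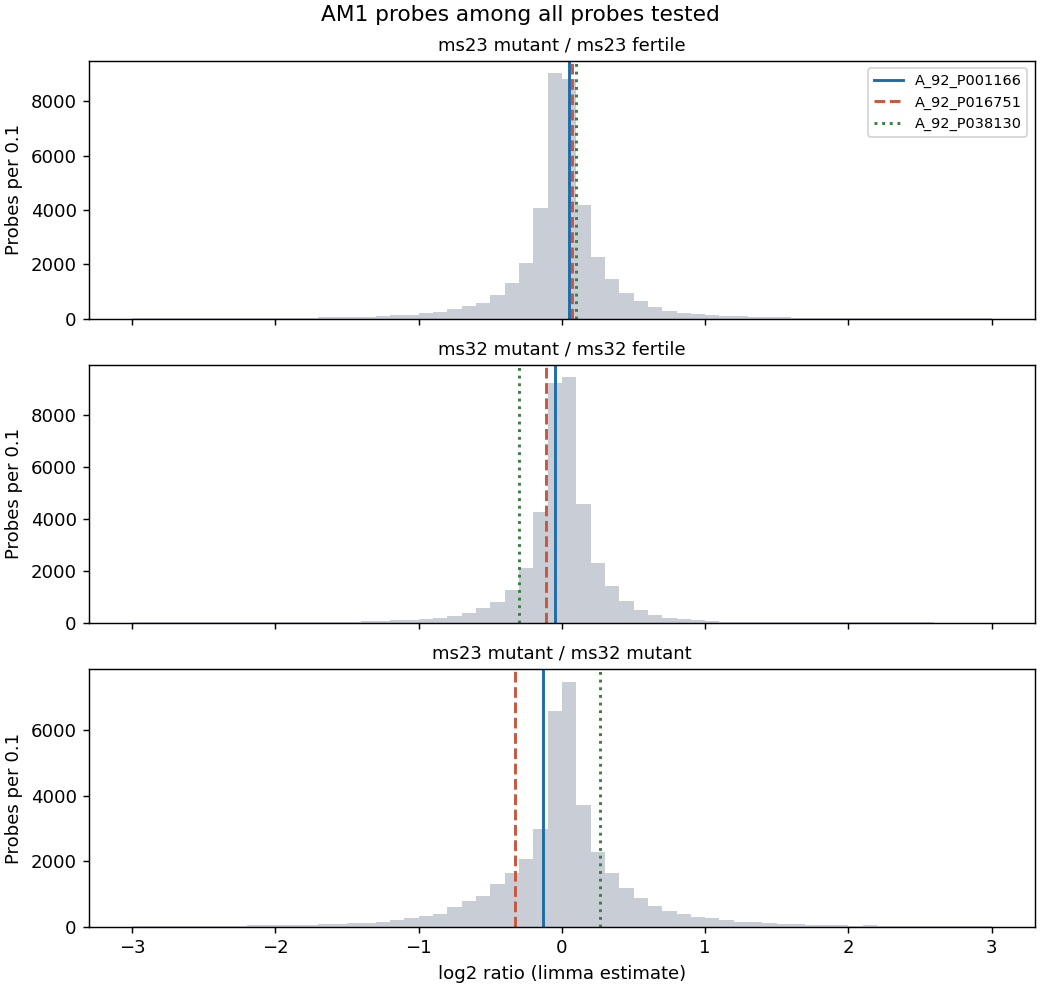
Number of probes (vertical axis) by limma log2 ratio (horizontal axis, bins of 0.1) for all probes tested in each comparison, with the 3 AM1 probes as vertical lines. The AM1 lines lie between -0.33 and 0.26, among the bulk of the probes in each panel.

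The 3 probes carry the same gene name but did not move as one. Over the 8 arrays, the ratios of A_92_P001166 and A_92_P016751 had a Pearson correlation of 0.859 and the same sign on 7. A_92_P038130 correlated at 0.181 with A_92_P001166 and at -0.0479 with A_92_P016751, with the same sign on 4 and 3 arrays. These arrays share slides and samples, and the values are descriptions. Over the 16 samples, with each dye centred, the levels of A_92_P016751 and A_92_P038130 correlated at -0.632, and those of A_92_P001166 and A_92_P016751 at -0.226, although the ratios of that pair ran together.

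The widest gap between probes was in the ratio of the mutants. On all 4 arrays of slide 1, A_92_P038130 lay above A_92_P016751, by 0.40 to 0.98 (mean 0.60, SD 0.261). It also lay above A_92_P001166 on all 4, by a mean of 0.40. In the comparisons with siblings, A_92_P038130 was above A_92_P016751 on 1 of 2 arrays in each family.

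Correlations this low between probes of a target were common on this array, while the size of the gap was not compared with other targets. Among 2272 targets with more than 1 probe, the median correlation between probes of a target was 0.291 (interquartile range -0.111 to 0.666), and 42.8% of targets lay below the AM1 median of 0.181. The residual SD of the AM1 probes around the fit was 0.335, 0.349 and 0.239, larger than in 69%, 70.9% and 52.5% of all probes. When the 3 probes were averaged before the fit, the ratio was 0.07 for ms23 mutants over siblings, -0.15 for ms32 mutants over siblings and -0.07 for ms23 over ms32 mutants. The limma adjusted p-values of that average were 0.981, 0.98 and 0.764.

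**Figure D4:**
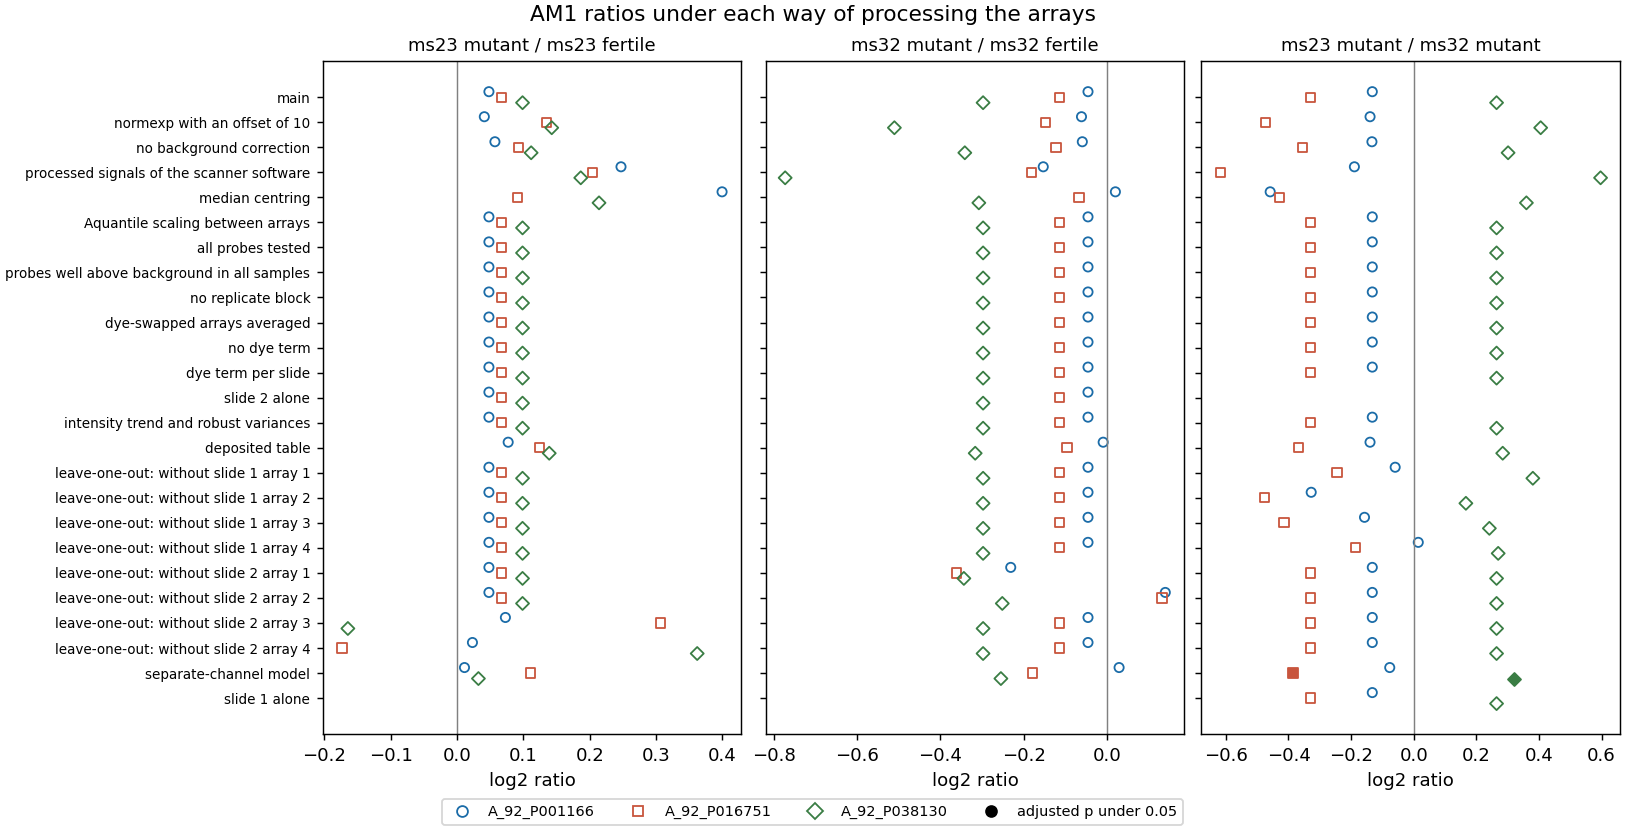
Log2 ratio (horizontal axis) of the 3 AM1 probes in the 3 comparisons, 1 line per way of processing the arrays; filled marks have an adjusted p under 0.05. The 2 filled marks, -0.38 and 0.32, belong to the separate-channel model in the ratio of the mutants.

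The probes whose levels ran most like the mean of the 3 AM1 probes over the 16 samples, with each dye centred, matched CA398982 (Pearson r 0.824), CF043314 (0.80), TC284537 (0.784), TC294199 (0.784) and CO465994 (0.776), sequences without a gene name in the files. The median r over 38785 probes was 0.0156. These 5 are the highest of that many values over 16 samples, some of which share a replicate number. How high the top values run without any relation was not tested, and the ranking is a description. The mean profile itself followed A_92_P001166 most (r 0.717) and A_92_P016751 least (r 0.172), and none of these 5 was among the 5 most like any single AM1 probe. Few probes have a gene name: of 19 compared, the closest were ZmSMC1 (A_92_P041560, 0.741), ZmRAD21 (A_92_P018022, 0.339), the other ZmSMC1 probe (A_92_P006198, 0.302), MUDRA-21 (A_92_P019862, 0.146) and a second ZmRAD21 probe (A_92_P026108, 0.135).

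AM1 was on a list of 20 genes of meiosis entry and sister chromatid cohesion, of which 5 had a probe by name. The other 4 were the cohesin ring subunits ZmSMC1 and ZmSMC3, the ring-closing subunit ZmRAD21 and ZmSGO1, a shugoshin that protects centromeric cohesion. None of their 14 probes was called in any of the 3 comparisons, where 1.31%, 0.49% and 20.6% of all probes were. Their log2 ratios ran from -0.03 to 0.44 (median 0.06) for ms23 mutants over siblings, from -0.25 to 0.29 (median 0.04) for ms32 mutants over siblings and from -0.25 to 0.60 (median -0.01) for ms23 over ms32 mutants. The medians over all probes were -0.00027, 0.00064 and 0.0083. The ratios farthest from 0 were ZmSMC3 probes, A_92_P008258 at 0.60 for ms23 over ms32 mutants (SE 0.226, limma adjusted p = 0.121) and A_92_P028580 at 0.44 for ms23 mutants over siblings (SE 0.238, limma adjusted p = 0.605). For ms23 over ms32 mutants the other ZmSMC3 probes were at -0.25, 0.10 and -0.13. For ms23 mutants over siblings the others were at 0.32, 0.34 and 0.39.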

How the data were processed

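RNA from 16 whole-anther samples was measured on 8 two-colour Agilent arrays of design 016047. Feature Extraction 10.5.1.1 read the images, per the file headers, and the deposited scanner files give a linear intensity for each spot, its local background and marks of 0 or 1. Besides that software, limma is named in the submitters' processing notes. The authors' deposited table of processed intensity values (column medians 122.4 to 122.45, with 9.56% to 31.9% of values at 0) was an alternative. Its dyes are labelled and its scale is linear, and its centring and the origin of its zeros are unknown.

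Median spot and background intensities were corrected by normexp (offset 50) and normalized by loess within arrays (R 4.3.3, limma 3.58.1, statmod 1.5.0). Control spots (1417) and outlier spots (1322) were left out of the loess curves and the ratio fits. Outlier spots were not masked in the overlap of levels, the separate-channel model or the fit of the deposited intensities. The AM1 probes had 0 outlier marks. A probe was tested (39981 of 42034) where 50% or more of some group's samples were well above background. One limma model over all 8 arrays had a dye term and a random block for arrays with the same replicate numbers; the estimated block correlation was -0.277, and 0 was used, which counts each array as independent. Residual degrees of freedom were 4. Levels were scaled between arrays by Aquantile. Precision is limited by the number of arrays. The fit was also run on simulated arrays with independent noise, which does not test the effect of RNA shared between arrays.

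The gene AM1, the gene lists and the tests were chosen with earlier results of these data known; the probes of AM1 were then taken by name. Named genes were the AM1 probes, the 5 probes most like their mean among all and among named probes, and the listed genes that were called or, with none called, the 2 largest ratios of a list. A list of 37 mitotic cell cycle genes had 0 probes by name.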

Additional observations from a re-analysis of the deposited data

How the results depend on the processing

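Each ratio of a probe was recomputed under 23 alternatives (22 for the fertile groups): other background corrections and normalizations, filters, dye terms, a single slide, the authors' deposited intensities, dye-swapped arrays averaged, separate channels, and each array left out. Of 69 probe values per comparison, 0 were called for either mutant against siblings and for the difference of the effects, and 0 of 66 for the fertile groups. For the ratio of the mutants 2 were called, both by the separate-channel model (2 of 3 probes, limma). The cause was not tested. The fit with no replicate block gave the same values and 0 calls in each comparison by construction, since 0 was put in place of the estimated correlation of the replicate block, and so did Aquantile scaling, which leaves ratios as they are. These 2 settings make up 6 of the 69 or 66 values. In the 3 direct comparisons, the filters, dye terms, single slide and averaging of dye-swapped arrays changed the SE and p but not the estimate. The same held where an array of another comparison was left out, so the sign could not turn under these settings.

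The sign turned in 2, 4, 1, 2 and 4 probe values, for ms23 mutants, ms32 mutants, the ratio of the mutants, the fertile groups and the difference of the effects. With each array left out, 0 probes were called in any comparison. For ms23 mutants over siblings the estimates then ran from -0.17 to 0.31 for A_92_P016751 and from -0.16 to 0.36 for A_92_P038130. For ms32 mutants over siblings they ran from -0.23 to 0.14 for A_92_P001166, -0.36 to 0.13 for A_92_P016751 and -0.34 to -0.25 for A_92_P038130. For the ratio of the mutants they ran from -0.33 to 0.01, -0.48 to -0.19 and 0.17 to 0.38.

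On processed signals the ratio of the mutants was -0.62 for A_92_P016751 and 0.60 for A_92_P038130, with wider intervals (-1.33 to 0.10 and 0.01 to 1.19), and with an offset of 10 it was -0.47 and 0.41. With median centring A_92_P001166 was 0.40 for ms23 mutants over siblings and -0.46 for the ratio of the mutants. With dye-swapped arrays averaged, A_92_P016751 and A_92_P038130 had adjusted p-values of 0.134 and 0.162 there.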
